A study of Ovis aries with 10 samples.

Results

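The circular RNAs of transporter and ion channel genes were examined in skeletal muscle of ovariectomized and sham-operated sheep. A circRNA was a member if its host gene symbol belonged to the solute carriers (SLC and SLCO), the P-type pumps and flippases (ATP1, ATP2, ATP7 to ATP11 and ATP13), the ATP-binding cassette (ABC) transporters, the potassium, calcium and sodium channels (KCN, CACN and SCN), the TRP channels, or the ryanodine and inositol trisphosphate receptors, with ATP2A1 and ABCC9 left out. The rule used names only and no measured value. It found 241 circRNAs from 99 host genes, of 8721 circRNAs (2.76%) listed in at least 1 library, and they held 8234 back-splice junction reads. The rule takes families rather than functions: it also captures auxiliary channel subunits (CACNA2D1, CACNB2, KCNMB4), the ribosome recycling factor ABCE1 and the outer mitochondrial membrane protein SLC25A46.

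The series holds 10 libraries of longissimus dorsi, the long back muscle, of small-tailed Han sheep: 5 of ovariectomized animals (OVX), which have lost ovarian estrogen, and 5 of sham-operated animals (sham), whose ovaries were kept. The stated aim was the effect of estrogen on muscle in females. The labels also call every sample primary myoblasts and describe a culture with estradiol, but no library carries a dose, and the age of the animals is not given in the sources used here. Nothing in the labels says that replicates are separate animals, so a p-value reflects only how these libraries vary, which may be technical. Of 12 markers of the muscle fiber, 10 hosted circRNAs with 16629 reads. TTN alone held 12696 of these, and ACTA1, CKM and MYH1 had 2 reads each. Of 6 markers of satellite cells and myoblasts only NCAM1 hosted a circRNA, with 2 reads, and PAX7, MYF5, MYOD1, MYOG and CDH15 had no entry. What these entries say about the cell type was not tested.

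A circRNA forms when the end of an exon is spliced back to the start of the same or an earlier exon, which closes the RNA into a ring without free ends, and reads across that back-splice junction count it. Transporters and channels move ions, metabolites and lipids across membranes. In muscle fibers, voltage-gated calcium channels and ryanodine receptors couple the electrical signal to calcium release, pumps and exchangers restore the ion gradients, and carriers feed the mitochondria. Many such genes are long and have many exons, and circRNAs of a gene need not follow its mRNA or protein.

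Junction reads per library ran between 35731 and 67061. OVX replicate 5 was the deepest library, sham replicate 1 had the fewest circRNAs listed (2559), and SENP6 circRNAs took up to 24.9% of a library (sham replicate 3). They averaged 2.71% ± 2.37 of junction reads in OVX and 10.6% ± 10.8 in sham libraries (SD, n = 5 each). Unless stated otherwise, shares of junction reads count them in the total. Members took 1.88% ± 0.215 of the junction reads in OVX and 1.83% ± 0.385 in sham libraries (SD, n = 5 each), with single libraries between 1.45% and 2.26%, and the groups overlapped. On average 85.0 ± 11.5 members were listed in an OVX library and 89.4 ± 10.6 in a sham library (SD, n = 5 each). The smallest count in the lists was 2 reads, so a circRNA without an entry in a library may still have been present below that level.

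Most members were rare. Of the 241, 85 (35.3%) were listed in 1 library, against 37.5% of all circRNAs, and 20 (8.30%) in all 10 libraries, against 9.24% of all. The 15 members with the most reads held 47.9% of the members' reads. By type, 226 were exonic and 15 intronic. The median spliced length, the summed length of the annotated pieces within the ring, was 297 bases, against 291 bases for all circRNAs. Of the exonic members, 42 held 1 exon, 86 held 2, 67 held 3 and 31 held 4 or more, and in 166 (73.5%, against 69.7% of all) both ends lay on annotated exon edges. The longest genomic span belonged to novel_circ_0006103 of CACNA2D1, an auxiliary subunit of voltage-gated calcium channels. Its ends lay 59.6 kb apart, it was listed with 307 bases in 3 exons, and it had 56 reads. Next came novel_circ_0004499 of ABCD2, a peroxisomal fatty acid transporter, with 55.5 kb and 7 reads, and novel_circ_0004845 of ITPR2 with 54.8 kb and 25 reads.

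Of the 99 hosts, 57 gave 2 or more circRNAs. RYR1, the ryanodine receptor that releases calcium from the sarcoplasmic reticulum of skeletal muscle, gave the most, with 12. ATP2B1, ATP2C1, ITPR2 and TRPC1 gave 8 each, SLC12A2 and ABCA1 gave 7, and CACNA2D1 gave 6. Of the 199 circRNAs of these 57 hosts, 112 (56.3%) shared a splice end with another circRNA of the host, against 69.1% over all such hosts. In SLC12A2, the sodium, potassium and chloride cotransporter that regulates cell volume, 3 circRNAs shared their lower end (chromosome 5, 23586291, minus strand) and held 808 of the gene's 1224 reads. All 4 circRNAs of SLC30A7, a zinc transporter of the Golgi, shared their end (chromosome 1, 78256743, plus strand). Coordinates are those of the deposited lists, counted from 1, and the genome build is not given in the sources used here.

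**Figure D1:**
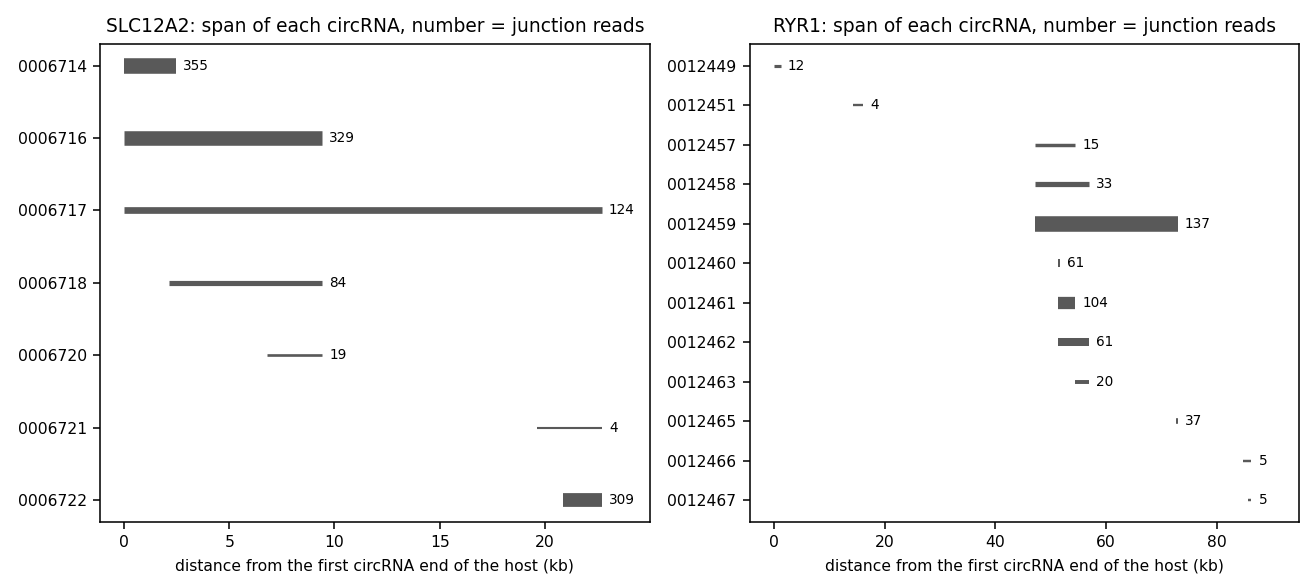
Extent of each circRNA of SLC12A2 (left) and RYR1 (right) as distance in kb from the first circRNA end of the host, in the direction of rising genome position; line width is proportional to junction reads, and the number is the reads over 10 libraries. In SLC12A2, 3 circRNAs start at the left edge with 355, 329 and 124 reads, and in RYR1 most circRNAs lie in a cluster that includes the 137 reads of novel_circ_0012459.

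The comparison of OVX with sham asked which of these circRNAs differ when the ovaries are removed. Of the 241 members, 16 had enough reads to be tested (10 reads, scaled to the median library, in at least 5 libraries). They held 4051 of the members' reads (49.2%). The test was limma voom, a linear model of log2 reads weighted by their precision, after TMM scaling, which sets libraries on a common scale. Of the 16, 0 passed at an adjusted p of 0.05, where the background was 0.0% (0 of 738 circRNAs tested), and 0 had an unadjusted p under 0.05, against 42 of 738 (5.69%). Estimates were above 0 for 6 members and below 0 for 10, with a median log2 fold change of -0.17, against 351 above (47.6%), 387 below (52.4%) and a median of -0.040 for all 738. Scaled by library totals in place of TMM, the median of all 738 moved to 0.14, with 458 above and 280 below 0, and the members split into 8 above and 8 below. With the replicate block they also split into 8 and 8, with a median of -0.0078. Benjamini-Hochberg adjusted p-values of the 16 ran between 0.781 and 0.968, and standard errors between 0.21 and 1.09 on the log2 scale. The estimate of SLC12A2 novel_circ_0006714, 0.90 with an error of 0.45, had a limma voom adjusted p of 0.781. Changes well above the size of the error could therefore be missed at this depth. Because these are bulk libraries, fewer cells of a type and less RNA per cell cannot be told apart in any of the values below.

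**Figure D2:**
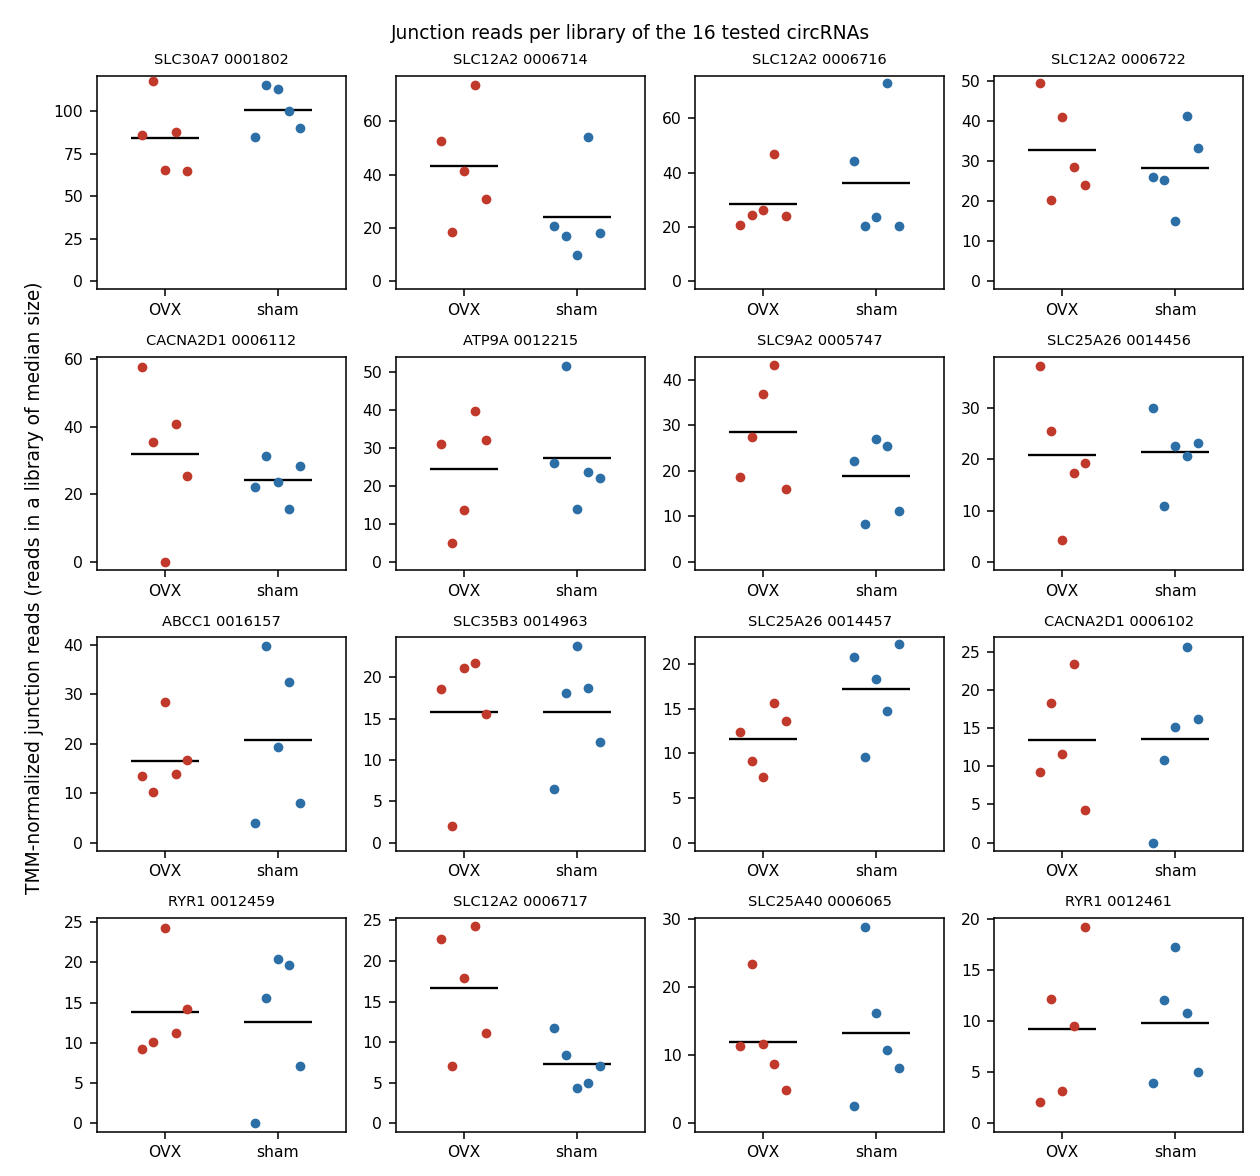
TMM-normalized junction reads (reads in a library of the geometric mean size, which the axis label calls median size) of the 16 tested circRNAs, 1 point per library, OVX left and sham right, with the group mean as a line. The groups overlap in every panel; CACNA2D1 novel_circ_0006112 has no entry in 1 OVX library, and CACNA2D1 novel_circ_0006102 and RYR1 novel_circ_0012459 have none in 1 sham library.

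Ion exchangers and cotransporters gave the most reads of any group of members, 2145 reads from 31 circRNAs of 11 hosts. They took 0.538% ± 0.149 of junction reads in OVX and 0.428% ± 0.149 in sham libraries (SD, n = 5 each). The groups overlapped, with OVX libraries between 0.349% and 0.752% and sham libraries between 0.273% and 0.669%. More than any other host, SLC12A2 filled this group, and 4 of its circRNAs were tested. The most read, novel_circ_0006714 (chromosome 5, 23586291 to 23588742, 3 exons, 365 bases), had 51, 18, 39, 85 and 50 reads in OVX replicates 1 to 5, against 16, 14, 9, 55 and 18 reads in sham replicates 1 to 5. Apart from sham replicate 4, every sham library lay below 4 of the 5 OVX libraries. Normalized, it averaged 43.4 ± 21.2 reads in OVX and 23.9 ± 17.4 in sham (SD, n = 5 each). The estimated change on the log2 scale was 0.90 ± 0.45 (SE, 95% interval -0.060 to 1.86, limma voom adjusted p = 0.781), which did not pass.

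The ring that runs from the same lower end to the farthest upper end, novel_circ_0006717 (chromosome 5, 23586291 to 23609001, 3 exons, 348 bases), had 22, 7, 17, 28 and 18 reads in OVX, against 9, 7, 4, 5 and 7 reads in sham. Its span holds that of novel_circ_0006716, for which 5 exons are listed, so its exon content is uncertain. In raw reads OVX replicate 2 lay within the sham range and the other OVX libraries above it, and after scaling the groups overlapped. Its log2 fold change was 1.16 ± 0.79 (SE, limma voom adjusted p = 0.846). The remaining pair of tested SLC12A2 circRNAs lay near 0: novel_circ_0006716, which extends novel_circ_0006714 by 2 exons to 5, was at -0.22 ± 0.37, and novel_circ_0006722, which shares the far upper end, at 0.17 ± 0.33 (SE). As a share of the host's junction reads, novel_circ_0006714 made up 31.7% ± 5.13 in OVX and 21.0% ± 4.11 in sham libraries (SD, n = 5 each). The groups overlapped, with OVX libraries between 25.0% and 38.6% and sham libraries between 17.3% and 28.1%. A limma test of each host's leading circRNA against its other circRNAs gave 0.79 ± 0.45 (log2, SE, adjusted p = 0.927) for SLC12A2, and 0 of 10 member hosts passed it, where the background was 0.0% (0 of 489 hosts).

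SLC9A2, a sodium and proton exchanger of the plasma membrane, gave a single-exon ring of 203 bases, novel_circ_0005747 (chromosome 3, 99118763 to 99118965). It had 18, 27, 35, 50 and 26 reads in OVX, against 17, 7, 25, 26 and 11 reads in sham, and the groups overlapped. Its log2 fold change was 0.57 ± 0.40, and that of all SLC9A2 circRNAs summed was 0.64 ± 0.33 (SE, limma voom adjusted p = 0.847 and 0.759). Of the other exchangers, the sodium and calcium exchanger SLC8A1 was at -0.57 ± 0.74 when all circRNAs of the host were summed (log2, SE), which did not pass. It had no entry in OVX replicate 1; without that library the estimate was -0.087, and without OVX replicate 5, which had its most reads, -1.54.

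SLC30A7 gave the circRNA with the most reads of all members. Its ring of 3 exons and 331 bases, novel_circ_0001802 (chromosome 1, 78248823 to 78256743), had 83, 116, 62, 101 and 105 reads in OVX, against 65, 96, 105, 102 and 89 in sham, 924 in all. In raw reads the ranges of the groups overlapped almost fully. Normalized, OVX libraries ran between 65.1 and 118 and sham libraries between 84.6 and 115. OVX replicates 3 and 5 then lay below every sham library. Its log2 fold change of -0.30 ± 0.21 had the smallest error among the 16 (SE, 95% interval -0.75 to 0.16, limma voom adjusted p = 0.847). The other 3 SLC30A7 circRNAs, which begin upstream and share its end, had 32, 11 and 3 reads. Of the remaining zinc transporters, SLC39A8, an importer, had 13 reads, SLC30A6 had 6 and SLC30A5 had 3.

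Among the calcium channels of the surface membrane, CACNA2D1 held 542 of 583 reads. Its leading ring, novel_circ_0006112 (chromosome 4, 40053630 to 40075332, 6 exons, 458 bases), had 56, 35, 47 and 41 reads in OVX replicates 1, 2, 4 and 5 and no entry in replicate 3, against 17, 26, 22, 16 and 28 reads in sham. The 4 OVX libraries that list it were above every sham library in raw reads, though not after scaling. The log2 fold change was -0.43 ± 1.09 with all libraries (SE, limma voom adjusted p = 0.939) and 0.66 without OVX replicate 3. With all libraries and the replicate block it was 0.61, and the normalized means were 31.9 reads in OVX and 24.2 in sham. The sign of the estimate thus depends on OVX replicate 3 and on the model. The second, novel_circ_0006102, was at -0.13 ± 0.86 (SE), had no entry in sham replicate 1, and was above 0 with library totals. The channel subunits CACNB2, CACNA1A, CACNA2D3 and CACNB4 had 15 reads or fewer each.

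The calcium release channels gave 739 reads from 28 circRNAs of RYR1, ITPR2, ITPR1 and RYR2. Of the 12 RYR1 circRNAs, 3 began at 47701347 on chromosome 14 and held 226 of the host's 494 reads, and 3 began at 47697282. The leading one, novel_circ_0012459, is listed with ends at 47697282 and 47723039, but its 3 listed exons all lie near the first end, so its exon content is uncertain. It had 9, 10, 23, 13 and 23 reads in OVX, against no entry, 13, 19, 20 and 7 in sham. Its log2 fold change was 0.42 ± 0.76, that of novel_circ_0012461 was 0.25 ± 0.73, and that of all RYR1 circRNAs summed was 0.16 ± 0.28 (SE, limma voom adjusted p = 0.939, 0.941 and 0.891). The RYR1 sum was at 0.00039 without OVX replicate 5 and at 0.052 without sham replicate 5. Under looser filters the estimate of novel_circ_0012461 was below 0. RYR1 circRNAs varied between libraries of one group: novel_circ_0012460 had 17, 6 and 17 reads in OVX replicates 1, 2 and 4 and no entry in replicates 3 and 5, against 3, 7 and 11 reads in sham replicates 1, 3 and 5 and no entry in replicates 2 and 4. RYR2, the cardiac form, had 17 reads. ITPR1, a receptor for inositol trisphosphate, gave 1 circRNA found in all 10 libraries, novel_circ_0014395, with 6, 7, 6, 13 and 7 reads in OVX, against 5, 11, 8, 4 and 3 in sham.

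Of the mitochondrial carriers (884 reads, 10 hosts), SLC25A26, which imports S-adenosylmethionine, led with 2 tested rings that share their lower end at 35305548 on chromosome 19 (minus strand). The shorter, novel_circ_0014456, was at -0.24 ± 0.46 and the longer, novel_circ_0014457, at -0.47 ± 0.36 (log2, SE). The longer ring had 12, 9, 7, 18 and 22 reads in OVX, against 16, 8, 17, 15 and 22 in sham, and the groups overlapped. SLC25A40, a carrier needed for mitochondrial glutathione, was at -0.27 ± 0.58 (SE). The fission and fusion factor SLC25A46 (novel_circ_0006594, 86 reads) and SLC25A27 (novel_circ_0014788, 64 reads), an uncoupling protein, gave circRNAs listed in all 10 libraries with too few reads for the test.

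In the remaining groups 3 circRNAs were tested. ATP9A, a lipid flippase of endosomes, was at -0.27 ± 0.50 (novel_circ_0012215, 268 reads), ABCC1, an exporter of drugs and glutathione conjugates, at -0.065 ± 0.51 (novel_circ_0016157, 188 reads) and SLC35B3, which carries the sulfate donor of the Golgi, at -0.23 ± 0.55 (novel_circ_0014963, 163 reads) on the log2 scale (SE), and the sign of ABCC1 turned with library totals. The P-type ion pumps gave 482 reads in 23 circRNAs, mainly of ATP2C1, the calcium and manganese pump of the Golgi (266 reads), and ATP2B1, the calcium pump of the plasma membrane (182 reads). The ATP2C1 ring found in all 10 libraries, novel_circ_0001146, had 3, 15, 6, 7 and 30 reads in OVX, against 5, 9, 12, 9 and 11 in sham, and OVX replicate 5 stood above every other library. The muscle sodium channel SCN4A had 12 reads. TRP channels had 214 reads, of which 121 were of TRPM7, a channel with a kinase domain, and 52 were spread over the 8 circRNAs of TRPC1. TRPM7 novel_circ_0008419 had 8, 15, 6, 4 and 14 reads in OVX, against 5, 13, 4, 12 and 7 in sham, and the ranges overlapped. Potassium channels had 106 reads, and took 0.0144% ± 0.0132 of junction reads in OVX and 0.0338% ± 0.0204 in sham libraries (SD, n = 5 each). The groups overlapped, with OVX libraries between 0% and 0.0320% and sham libraries between 0.0135% and 0.0651%. KCNN3 alone held 70 of the 106 reads, and 8 of the 11 circRNAs were listed in 1 library.

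Summed over all circRNAs of a host, 18 member hosts could be tested, and 0 passed at an adjusted p of 0.05, where the background was 0.0% (0 of 753 hosts). At an unadjusted p under 0.05 it was 0 of 18, against 45 of 753 (5.98%). Estimates were above 0 for 5 and below 0 for 13, with a median of -0.25, against 363 above (48.2%), 390 below (51.8%) and a median of -0.017 for all hosts. With library totals, 7 member hosts were above and 11 below 0, against 459 above and 294 below for all hosts. With the replicate number as a block, 9 were above and 9 below 0 with a median of 0.0097, against 362 above and 391 below for all hosts. The lowest estimates were those of ABCA1, which exports cholesterol, at -1.78 ± 0.99, and of ATP8B1, a lipid flippase known from familial cholestasis of the liver, at -1.70 ± 1.13 (log2, SE, limma voom adjusted p = 0.779 and 0.806). ABCA1 averaged 5.32 ± 3.97 normalized reads in OVX and 15.1 ± 6.36 in sham, and ATP8B1 averaged 6.19 ± 4.24 in OVX and 20.1 ± 13.3 in sham (SD, n = 5 each). ABCA1 had no entry in OVX replicate 3 and was at -1.05 without that library, and ATP8B1 had none in OVX replicate 2 and was at -1.07 without it.

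**Figure D3:**
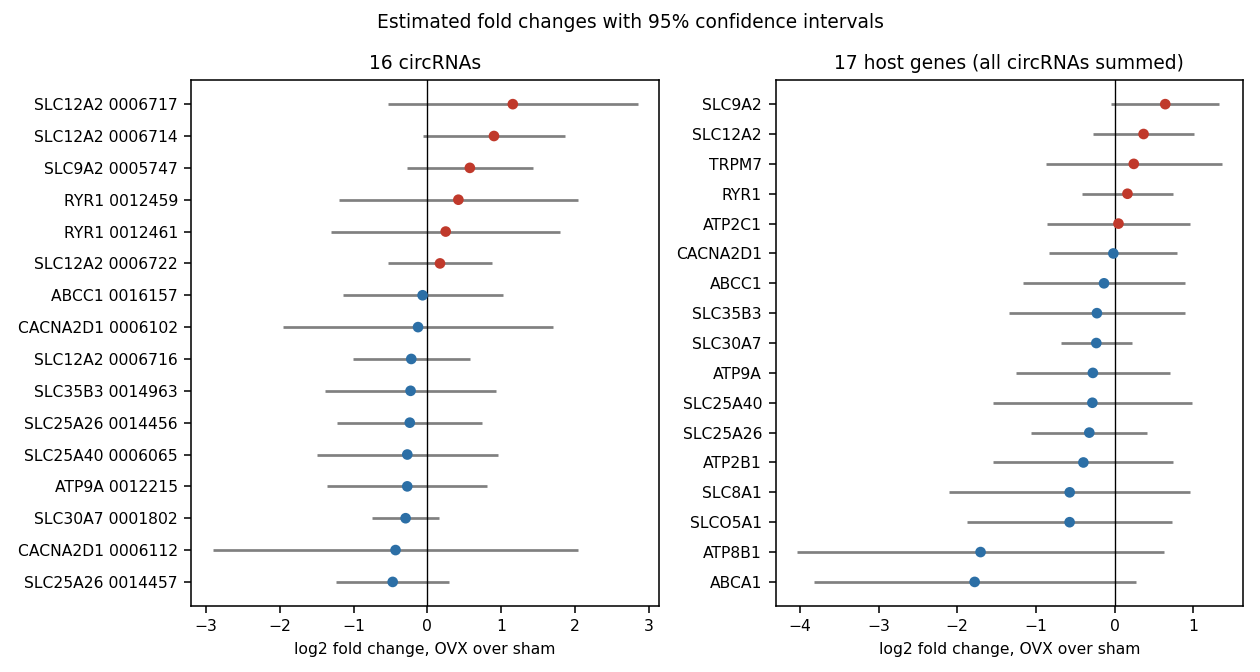
Estimated log2 fold changes, OVX over sham, with 95% confidence intervals of the 16 tested circRNAs (left) and 17 of the 18 tested host genes (right). Every interval spans 0; the points run between -0.47 and 1.16 for circRNAs and between -1.78 and 0.64 for hosts.

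Below the filter, some circRNAs lay on one side in these libraries. Of 80 members with at least 20 reads, 3 had normalized reads with no overlap of OVX and sham, where the background was 0.771% (23 of 2984 circRNAs), and all 3 were lower in OVX, a direction with a background of 0.503%, against 0.268% higher. KCNN3, a calcium-activated potassium channel of small conductance, gave novel_circ_0000062 (chromosome 1, 104931282 to 104948953) with 2 and 4 reads in OVX replicates 1 and 2 and no entry in the others, against 5, 4, 5, 12 and 13 in sham. ABCA1 gave novel_circ_0003040 (chromosome 2, 18208865 to 18218284) with 2 and 3 reads in OVX replicates 1 and 2 and no entry in the others, against 4, 3, 6, 9 and 5 in sham. For both, OVX replicate 2 and sham replicate 2 had equal raw reads, and only the scaling to library size set them apart.

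ATP8B1 novel_circ_0016040 (chromosome 23, 57248474 to 57251475) had no entry in any OVX library, against 7, 12, 2, 3 and 5 reads in sham. It was listed in every sham library. One end of this ring is not on an annotated exon edge, since its single listed exon of 191 bases ends far from the second position. The neighbouring ATP8B1 ring novel_circ_0016041 had 5, 2 and 11 reads in OVX replicates 1, 3 and 5 and no entry in the others, against 7, 14, 2, 8 and 11 in sham, and the groups overlapped. No fold is given for circRNAs without an entry in a group.

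Of 110 members in at least 3 libraries, 2 were listed in 3 or more OVX and in 0 sham libraries, where the background was 2.24% (93 of 4153), and 6 were listed in 3 or more sham and in 0 OVX libraries, where it was 2.22% (92 of 4153). The OVX pair were novel_circ_0014668 of SLC6A6, the taurine transporter, with 2, 6, 3 and 18 reads in OVX replicates 1, 2, 3 and 5, and novel_circ_0012449 of RYR1, with 4, 2, 3 and 3 reads in OVX replicates 1, 3, 4 and 5. Besides ATP8B1, the sham set held novel_circ_0004296 of ATP2B1 with 5, 9, 5 and 4 reads (sham replicates 1, 2, 4 and 5). The intronic novel_circ_0000064 of KCNN3 had 4, 4 and 10 reads in sham replicates 3 to 5, novel_circ_0007345 of SLC39A8 had 2, 9 and 2 there, and novel_circ_0000530 of SLC49A4 had 3, 4 and 2 in replicates 1, 3 and 5. Markers of other cell types stood beside these values as follows. The summed normalized reads of 5 endothelial marker hosts of 8 ran between 14.1 and 38.2 in OVX and between 24.1 and 38.2 in sham, those of 3 fibroblast and matrix marker hosts of 9 between 29.7 and 112 in OVX and between 42.2 and 71.0 in sham, 1 immune marker of 6 had 5 reads in all, 1 smooth muscle and pericyte marker of 6 had 4, 1 adipocyte marker of 6 had 18, and 7 markers of neurons and Schwann cells had none. Their part in the result was not tested.

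**Figure D4:**
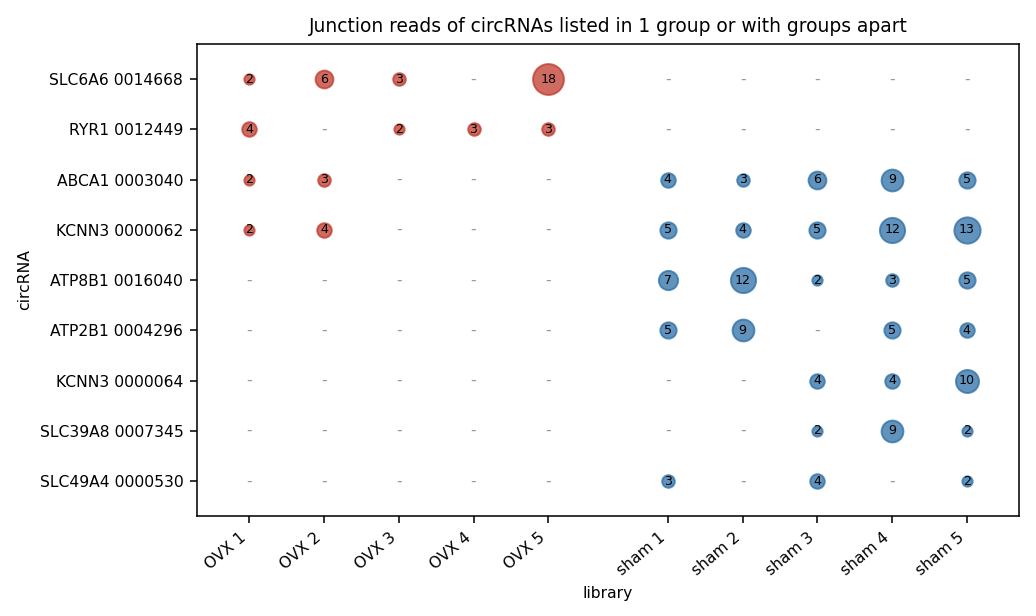
Junction reads per library, OVX left and sham right, of 9 of the circRNAs whose normalized reads had no overlap or that were listed in 3 or more libraries of 1 group and in none of the other; point area is proportional to the reads, which are printed in it, and a dash marks no entry. SLC6A6 and RYR1 fill OVX columns only, 5 circRNAs fill sham columns only, and no value exceeds 18 reads.

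In the authors' deposited table, 9 of the 241 members had an unadjusted p under 0.05, where the background was 1.35% (118 of 8721), and 0 an adjusted p under 0.05, where it was 0.0115% (1 of 8721). The smallest p there was that of ATP8B1 novel_circ_0016040, 0.000238, with an adjusted p of 0.527. Others in the authors' deposited table were KCNN3 novel_circ_0000062 at p = 0.00539 and SLC12A2 novel_circ_0006717 at p = 0.0167, both with an adjusted p of 0.966. In the authors' deposited table ATP2B1 novel_circ_0004296 was at p = 0.00386, SLC6A6 novel_circ_0014668 at 0.0136, ABCA1 novel_circ_0003040 at 0.0324 and KCNN3 novel_circ_0000064 at 0.0418. The authors' deposited table also has SLC43A2, a carrier of neutral amino acids, whose novel_circ_0010719 is at p = 0.0261 and was found in all 10 libraries. Its reads were 8, 4, 3, 4 and 9 in OVX, against 10, 18, 6, 16 and 6 in sham, and overlapped.

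The share of junction reads among all reads listed for a circRNA ranged widely between hosts. This junction share, which counts 2 splice sites per junction read and sets them against the non-junction reads of the list, was 6.49% ± 1.35 in OVX and 6.06% ± 0.851 in sham libraries over all members (SD, n = 5 each), against 3.82% ± 0.613 in OVX and 3.01% ± 0.581 in sham for all other circRNAs. These shares are pooled over reads. Taken per circRNA, the median was 11.04% for the 80 members with at least 20 reads and 11.16% for all 2984 such circRNAs, and 22.2% for the 16 tested members and 23.8% for all 738 tested. Without a read cut it was 11.4% for the 241 members and 7.84% for all 8721 listed circRNAs. How non-junction reads were counted is not given in the sources used here. Among the 42 members with at least 50 reads the share ran between 0.849% and 76.5%. SLC35B3 had the highest share (novel_circ_0014963, 76.5%), followed by SLC30A7 (novel_circ_0001802, 67.8%), SLC25A40 (novel_circ_0006065, 61.5%), SLC25A27 (novel_circ_0014788, 61.0%) and SLC9A2 (novel_circ_0005747, 44.0%). The lowest 5 were all of RYR1 (0.849%, 1.05%, 1.10% and 1.94%) and CACNA2D1 (1.32%). Pooled by group, calcium release channels had a share of 1.50%, P-type ion pumps 2.77%, calcium channels 3.00%, lipid flippases 16.9%, ion exchangers and cotransporters 18.0% and zinc transporters 50.5%. The median over the circRNAs of a group gave another order, with 2.64% for P-type ion pumps, 6.501% for calcium channels, 7.11% for calcium release channels, 12.2% for zinc transporters, 14.99% for lipid flippases and 20.9% for ion exchangers and cotransporters. Of the 992 reads of zinc transporters, 924 were those of novel_circ_0001802 alone.

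**Figure D5:**
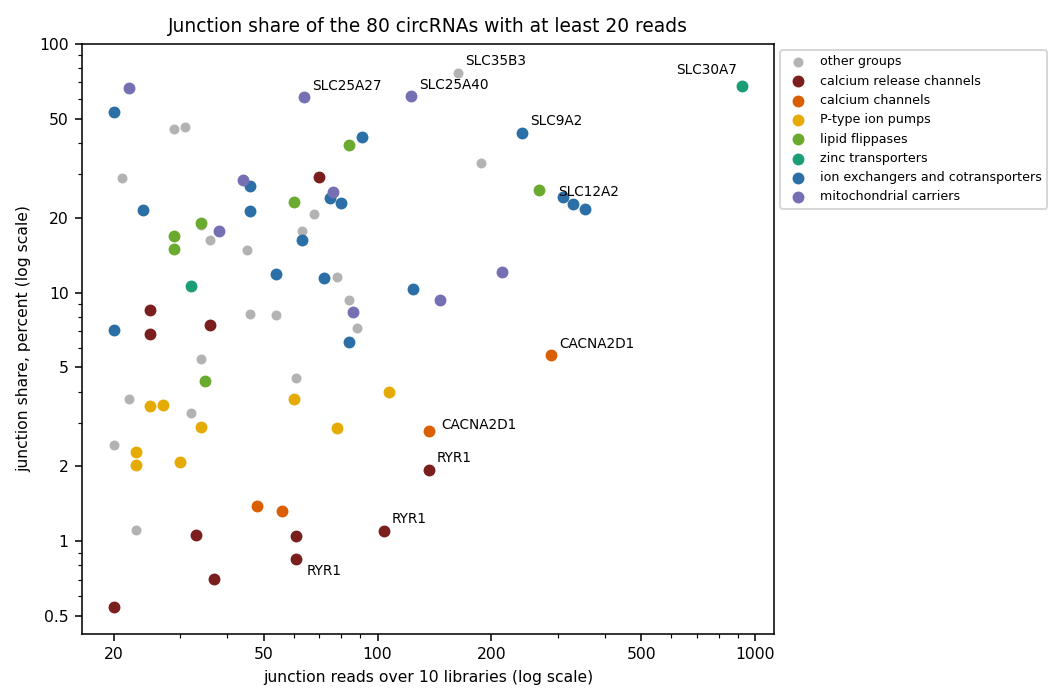
Junction share in percent against junction reads over 10 libraries, both on log scales, for the 80 members with at least 20 reads, colored by group. The RYR1 circRNAs lie between 0.544% and 1.94% and those of CACNA2D1 between 1.32% and 5.60%; at the top, from 61.0% to 76.5%, lie circRNAs of SLC25A27, SLC25A40, SLC25A53, SLC30A7 and SLC35B3, although a second one of SLC30A7 is at 10.7%.

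Between the groups of sheep the junction share of SLC30A7 novel_circ_0001802 was 73.2% ± 2.77 in OVX and 63.1% ± 7.85 in sham libraries (SD, n = 5 each), and that of CACNA2D1 novel_circ_0006102 was 2.11% ± 0.965 in OVX (n = 5) and 3.94% ± 1.12 in the 4 sham libraries that list it (SD). For SLC30A7 the shares were 72.5%, 75.3%, 69.3%, 72.7% and 76.4% in OVX, against 59.9%, 55.8%, 64.0%, 76.1% and 59.5% in sham. Only sham replicate 4 lay within the OVX range. For CACNA2D1 novel_circ_0006102 the groups overlapped, with OVX replicate 4 at 3.72%, above sham replicates 2 (2.62%) and 3 (3.53%). The other tested CACNA2D1 ring, novel_circ_0006112, was higher in OVX. Its share was 6.96% ± 2.62 in the 4 OVX libraries that list it and 5.11% ± 2.19 in sham (SD, n = 5). In a limma test of log2 junction over non-junction reads, 0 of 16 members passed at an adjusted p of 0.05, where the background was 0.136% (1 of 735 circRNAs), and 1 of 16 had an unadjusted p under 0.05, where it was 7.76% (57 of 735). SLC30A7 novel_circ_0001802 was at 0.66 ± 0.38 and CACNA2D1 novel_circ_0006102 at -0.97 ± 0.43 (SE, adjusted p = 0.589 each).

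Genes of the same processes outside the naming rule were read for comparison. Over all 753 hosts tested, 0 passed, 363 estimates were above 0 and 390 below, and the median was -0.017. Of 47 genes of excitation contraction coupling and calcium handling, 16 hosted circRNAs and 7 could be tested: 0 passed in either direction, 1 estimate was above 0 and 6 below, and the median was -0.26. Of the 6 below, MCU and HOMER3 had a higher normalized mean in OVX than in sham (46.2 against 32.4 and 15.12 against 15.01 reads), and the others a lower one. JPH1, a junctophilin that holds the surface and reticulum membranes together, was at -0.81 ± 0.39, and MICU3, a regulator of mitochondrial calcium uptake, at -0.15 ± 0.20 (log2, SE, limma voom adjusted p = 0.759 and 0.885). Of 55 other channel and pore genes, 17 hosted circRNAs and 4 were tested, 0 passed, and 3 estimates were above 0 and 1 below, with a median of 0.24. ANO5, a protein of the anoctamin family, was at 0.34 ± 0.17, and CLCN1, the muscle chloride channel, at 0.41 ± 0.31 (SE, adjusted p = 0.759 and 0.806). Of 60 other transporter and transport ATPase genes, 10 hosted circRNAs and 1 was tested, MFSD14A at -0.20 ± 0.26 (SE), which did not pass.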

How the data were processed

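Per the labels, libraries were made with a directional kit, and HISAT2 stands in the submitters' processing notes. Which program called the circRNAs, on what build and annotation, is not given in the sources used here. The authors deposited a list of circRNAs that packs the whole-number count of junction and non-junction reads of each library into 1 cell, and 10 sample names in it, which match no label, were left unused. They also deposited a table with, per group, the mean normalized read signal, a log2 fold change of sham over OVX, and the p-value and adjusted p-value, which the authors computed. A circRNA with no entry in a library was entered as 0.

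Packed counts were unpacked and tested with limma 3.58.1 (voom, TMM scaling, robust empirical Bayes, R 4.3.3) over all circRNAs with 10 reads, scaled to the median library, in at least 5 libraries and 15 reads in all, with Benjamini-Hochberg adjustment over all of them. Host genes were tested on summed reads. Normalized reads are TMM-scaled reads in a library of the geometric mean size. The junction to non-junction ratio (0.5 added to each) and the leading circRNA share were tested with limma, and both tests were chosen after seeing the data. Scripts were tested on simulated data. All 241 member host IDs were found in the RefSeq gene table (assembly ARS-UI_Ramb_v3.0), from which chromosome numbers were taken.

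Members, gene lists and tests were chosen with earlier results of these data known. Named circRNAs are the 6 tested with the smallest p in each direction, the 15 with the most reads, those listed in all 10 libraries, those with groups apart (at least 20 reads) or listed in 3 or more libraries of 1 group and in none of the other, the 5 highest and 5 lowest junction shares (at least 50 reads) and the 3 longest spans. A few members that this rule names are not reported here. Other circRNAs and hosts in the text were chosen after their values were seen. Replicate numbers were shared between the groups, and whether they pair the libraries could not be decided from the reads. Alternatives were other scalings, filters and tests, a replicate block, and leaving out each library in turn. The number of junction reads limits precision, and no interval covers more than the spread between libraries.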

Additional observations from a re-analysis of the deposited data

Results flagged for a closer look

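Of 84 sets of 5 libraries looked at, 3 had 1 library far from the other 4. That is not more than about 1 in 20, a rate assumed for chance and not tested on these counts. SLC12A2 novel_circ_0006714 had 54.1 normalized reads in sham replicate 4, against 9.70 to 20.8 in the other sham libraries. SLC12A2 novel_circ_0006716 had 46.8 in OVX replicate 4, against 20.7 to 26.4 in the other OVX libraries. SLC25A27 novel_circ_0014788 had 18.3 in sham replicate 3, against 1.97 to 6.06 in the other sham libraries.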

How the results depend on the processing

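No member circRNA and no member host passed under any alternative run, with 1 exception. With no filter on reads, all 8721 circRNAs entered, 30 passed, and among them were 3 members, all without an entry in OVX: ATP8B1 novel_circ_0016040 (limma voom adjusted p = 0.000140), ATP2B1 novel_circ_0004296 (0.0241) and 1 more. Over all circRNAs, 4 passed with 2 reads in 5 libraries as the filter and 3 with the replicate block; over all hosts 7 passed with no filter, 2 with the looser filter, 1 with the block, and 0 to 1 when each library was left out in turn. Whether the same replicate number marks a pair could not be decided from the reads. Deviations from the group means correlated at 0.051, 0.190, 0.052, 0.112 and -0.117 over the 5 numbers. Against libraries of other numbers the mean correlations were -0.015, -0.045, -0.018, -0.027 and 0.033. Of 10 libraries, 3 correlated best with their own number.

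The difference in junction share, OVX minus sham, was 0.44 percentage points over summed reads and 2.01 as the median over members; leaving out 1 library gave -0.0068 (without OVX replicate 5) to 0.907 (without OVX replicate 2). The members' share of reads differed by 0.050 percentage points, by -0.101 with SENP6 circRNAs left out of the total, and by -0.045 (without sham replicate 3) to 0.158 (without sham replicate 2) with 1 library left out. Without OVX replicate 5 and sham replicate 1, chosen after seeing the data, it differed by -0.018. Library totals without TMM moved the median of all circRNAs to 0.14 (log2) and that of the members to 0.057, with 8 above and 8 below 0.

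Of 575 single fold changes recomputed for the 34 tested circRNAs and hosts, 57 changed sign, none of them past the threshold, and the cause was not tested. With library totals, CACNA2D1 novel_circ_0006102 was at 0.16, ABCC1 novel_circ_0016157 at 0.18, and the host sums of CACNA2D1 and ABCC1 at 0.13 and 0.15. With the looser filter these were 0.23 for CACNA2D1 novel_circ_0006102, 0.0054 for ABCC1 novel_circ_0016157, -0.065 for RYR1 novel_circ_0012461 and 0.022 for the CACNA2D1 sum; with no filter the 3 circRNAs were at 0.30, 0.027 and -0.11. With limma trend and a pseudocount of 1 they were at 0.39, 0.028 and -0.22 and SLC25A40 novel_circ_0006065 at 0.050; with a pseudocount of 5, CACNA2D1 novel_circ_0006102 was at 0.11 and RYR1 novel_circ_0012461 at -0.10. With the replicate block, RYR1 novel_circ_0012459 was at -0.045, SLC25A26 novel_circ_0014456 at 0.029, SLC35B3 novel_circ_0014963 at 0.17, CACNA2D1 novel_circ_0006112 at 0.61, and the host sums of CACNA2D1, ATP2B1, SLC35B3 and SLCO5A1 at 0.11, 0.14, 0.16 and 0.056. The block changed no call of a member.

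Leaving out each library in turn, the circRNAs that changed sign ranged between -0.66 and 0.45 (CACNA2D1 novel_circ_0006102), -0.64 and 0.66 (CACNA2D1 novel_circ_0006112), -0.42 and 0.21 (ABCC1 novel_circ_0016157), -0.40 and 0.11 (SLC12A2 novel_circ_0006716), -0.49 and 0.18 (ATP9A novel_circ_0012215), -0.16 and 0.80 (RYR1 novel_circ_0012459), -0.021 and 0.44 (RYR1 novel_circ_0012461), -0.44 and 0.20 (SLC25A26 novel_circ_0014456), -0.60 and 0.22 (SLC25A40 novel_circ_0006065) and -0.42 and 0.31 (SLC35B3 novel_circ_0014963). The host sums that did so ranged between -0.17 and 0.36 (CACNA2D1), -0.45 and 0.19 (ABCC1), -0.19 and 0.47 (ATP2C1), -0.50 and 0.19 (ATP9A), -0.57 and 0.19 (SLC25A40) and -0.40 and 0.31 (SLC35B3). Of those that kept their sign where they could be tested, ABCA1 ranged between -2.005 and -1.05, ATP8B1 between -2.15 and -1.07, SLC8A1 between -1.54 and -0.087, ATP2B1 between -1.05 and -0.064, and RYR1 between 0.00039 and 0.32. The signs of SLC12A2 novel_circ_0006714 and novel_circ_0006717, SLC9A2 and SLC30A7 held in each of these runs that could test them. For novel_circ_0006717 these were only the runs without OVX replicate 2 and without sham replicate 2, 3, 4 or 5. Few reads per circRNA limit what could be tested: 225 of the 241 members had too few.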
